A study of Homo sapiens with 2 samples.

Results

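The 10 genes described here, RN7SK, RN7SL1, RN7SL2, RMRP, RPPH1, RNU6-1, RNU6-2, RNU6-7, RNU6-8 and RNU6-9, are transcribed by RNA polymerase III and encode 7SK, 7SL, the RNAs of RNase MRP and RNase P, and U6. They were selected from the 62700 annotated genes on the main chromosomes as named RNA polymerase III genes with promoter elements upstream of the transcript. The measured values behind the choice were the positions of the listed regions, which were known when the genes were picked. For each gene, the list of R-loop regions was searched for a region sharing at least 1 base with the annotated transcript. That overlap was found for 6 of the 10 genes: RN7SK, RN7SL1, RN7SL2, RMRP, RNU6-2 and RNU6-8. Among all annotated genes the share was 1.11%, and among those of at most 500 bp it was 0.441%. The count is a description only, because the genes were picked with the list in view. No region lay on RPPH1, RNU6-1, RNU6-7 or RNU6-9.

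R-loops, in which RNA pairs with one DNA strand and displaces the other, were measured with CUT&Tag in a uveal melanoma cell line, OMM2.3. Its cells carried, by lentivirus, either a control short hairpin (shCtrl) or one against the cytidine deaminase APOBEC3B (shA3B), and both had been transfected with RNASEH1_D210N, a V5-tagged, catalytically inactive RNase H1 that binds hybrids without cutting them. A V5 antibody directed a protein A-Tn5 transposase to the bound DNA, and each group had 1 library. The measurement was the authors' list of 562 regions called as differing between these libraries, 553 of them on the main chromosomes, and each region is listed by its coordinates alone. The list does not say which library was higher in a region, nor whether a gene without a region had signal in either one. The paper reports that knockdown lowered the number of R-loop peaks as a whole, which gives no direction for a single region here. The read depth is unknown, there was no replicate check, and the knockdown of APOBEC3B could not be checked from coordinates. The paper reports lower APOBEC3B RNA in shA3B than in shCtrl OMM2.3 cells by quantitative PCR, which was not a measurement of these libraries. Hybrids were read through an overexpressed binding protein, so the list gives positions of that protein and not RNA output.

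RNA polymerase III makes short, abundant, untranslated RNAs and stops within a run of T residues on the coding strand. At the U6, 7SK, RMRP and RPPH1 genes the promoter lies before the transcript. It consists of a proximal sequence element (PSE) bound by the SNAPc complex, a TATA box bound by a TBP factor that contains BRF2, and a distal element with octamer and ZNF143 sites bound by POU2F1 and ZNF143. The 7SL genes combine an upstream element with sequence inside the transcript. 7SK RNA holds the kinase P-TEFb in an inactive complex with HEXIM and LARP7, and so limits RNA polymerase II elongation. 7SL RNA is the scaffold of the signal recognition particle, which brings ribosomes to the endoplasmic reticulum. RMRP RNA is the catalytic subunit of RNase MRP, which cuts pre-rRNA, RPPH1 RNA is that of RNase P, which removes the leader of precursor tRNAs, and U6 lies at the catalytic core of the spliceosome.

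The 100 bases before each transcript are shown first because they hold the core promoter and separate the genes of a family, whose transcripts are nearly alike. They were read 5′ to 3′ on the strand of the gene from GRCh38. Capitals mark matches to the motifs searched for: the PSE-like pair ACC and AAAG with the bases between them, or the 5′ part of such an element as ACCNTAA. They also mark a TATA box core and the cyclic AMP response element (CRE) TGACGTCA, and, at the left end for RPPH1, the end of an octamer. The 6 genes with a region read as follows.
RN7SK (chr6:52995521-52995620, plus strand): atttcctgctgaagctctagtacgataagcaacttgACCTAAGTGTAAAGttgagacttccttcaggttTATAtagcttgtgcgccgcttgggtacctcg
RN7SL1 (chr14:49586480-49586579, plus strand): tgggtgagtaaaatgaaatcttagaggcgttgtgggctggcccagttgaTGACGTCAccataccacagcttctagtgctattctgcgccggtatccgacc
RN7SL2 (chr14:49862850-49862949, minus strand): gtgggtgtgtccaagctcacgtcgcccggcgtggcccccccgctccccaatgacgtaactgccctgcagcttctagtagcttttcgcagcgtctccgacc
RMRP (chr9:35658018-35658117, minus strand): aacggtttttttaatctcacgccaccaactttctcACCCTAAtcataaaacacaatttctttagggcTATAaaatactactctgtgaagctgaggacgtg
RNU6-2 (chr19:1021422-1021521, plus strand): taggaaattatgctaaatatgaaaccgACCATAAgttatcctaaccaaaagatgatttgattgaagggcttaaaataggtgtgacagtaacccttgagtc
RNU6-8 (chr14:32203270-32203369, minus strand): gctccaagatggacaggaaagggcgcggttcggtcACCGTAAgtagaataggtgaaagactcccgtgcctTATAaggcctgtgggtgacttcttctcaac
The 4 genes without a region read as follows.
RPPH1 (chr14:20343408-20343507, minus strand): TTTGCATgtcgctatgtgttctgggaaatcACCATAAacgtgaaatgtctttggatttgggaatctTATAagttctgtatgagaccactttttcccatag
RNU6-7 (chr14:32201945-32202044, plus strand): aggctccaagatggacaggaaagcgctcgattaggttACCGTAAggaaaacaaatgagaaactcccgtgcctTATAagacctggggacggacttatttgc
RNU6-1 (chr15:67840046-67840145, minus strand): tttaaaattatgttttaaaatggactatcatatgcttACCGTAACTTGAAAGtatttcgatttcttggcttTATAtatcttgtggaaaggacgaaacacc
RNU6-9 (chr19:893384-893483, plus strand): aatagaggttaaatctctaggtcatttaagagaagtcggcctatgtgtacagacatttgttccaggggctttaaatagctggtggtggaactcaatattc

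A TATA that starts 35 to 20 bases before the transcript was present in 6 of the 10 genes, 3 with a region (RN7SK, RMRP and RNU6-8) and 3 without (RPPH1, RNU6-1 and RNU6-7). The same window held TATA in 5.67% of 35116 RefSeq promoters. The PSE-like pair, with 6 to 9 bases between its parts and a start 80 to 45 bases before the transcript, was found in RN7SK at 64 bases and RNU6-1 at 63 bases, and in 0.701% of the promoters. ACCNTAA, a form chosen after the sequences had been read and overlapping the pair in RNU6-1, matched 6 genes between 73 and 63 bases before the transcript, again 3 with a region (RMRP, RNU6-2, RNU6-8) and 3 without (RPPH1, RNU6-1, RNU6-7), against 0.356% of the promoters. RN7SL1, RN7SL2 and RNU6-9 held no TATA or PSE-like match in these windows. A match here is a match of letters and was not tested for binding, and a gene without one may hold a variant of the element.

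The octamer ATTTGCAT, searched on both strands of the 250 bases before the transcript, was found in 6 genes. It was 217 bases before RMRP, 101 before RPPH1, 221 before RNU6-1 and RNU6-7, 222 before RNU6-8 and 224 before RNU6-9, against 1.63% of all promoters. RMRP and RNU6-8 had a region and the other 4 did not. The matches are shown in capitals with 11 bases on each side because their distance from the transcript was nearly the same in the U6 genes with and without a region, and RNU6-7 and RNU6-8 had the same 30 bases.
RMRP (chr9:35658216-35658245, minus strand): ggccagaccatATTTGCATaagatagtgtc
RNU6-8 (chr14:32203473-32203502, minus strand): cccgggcgctcATTTGCATgtcccacccaa
RPPH1 (chr14:20343490-20343519, minus strand): cgccctgcaatATTTGCATgtcgctatgtg
RNU6-1 (chr15:67840248-67840277, minus strand): gattccttcatATTTGCATatacgatacaa
RNU6-7 (chr14:32201813-32201842, plus strand): cccgggcgctcATTTGCATgtcccacccaa
RNU6-9 (chr19:893249-893278, plus strand): cctccggggctATTTGCATacgaccatttc
The ZNF143-like CCCANNAT, also searched on both strands, was present in 4 genes, RN7SK at 152 bases (on the opposite strand), RN7SL1 at 155, RNU6-2 at 226 and RNU6-1 at 237, against 10.7% of promoters. The CRE was present in RN7SL1 at 51 bases and RPPH1 at 221, against 1.65%.

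**Figure D1:**
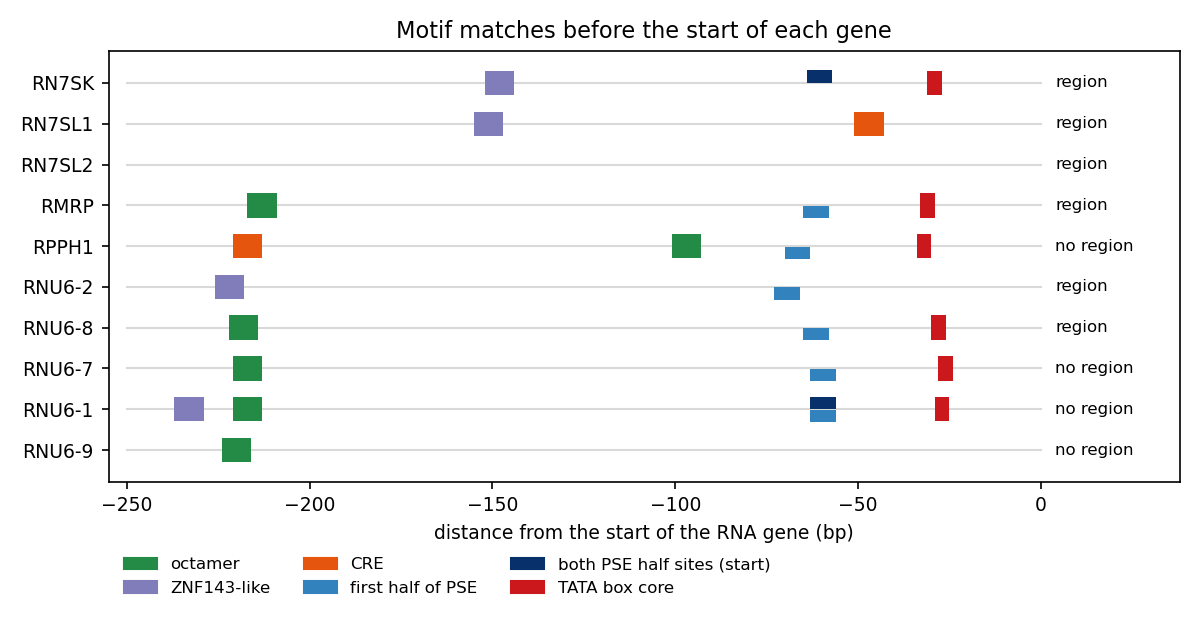
Motif matches in the 250 bases before each gene (x axis, bp from the transcript start), with 1 line per gene and a note on whether a listed region lay on the transcript. Octamer, TATA and first-half PSE matches stand in genes with and without a region, such as the octamer in 2 genes with a region and 4 without.

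Across the annotation, 695 of 62700 genes (1.11%) shared a base with a region. Among the 14274 genes of at most 500 bp, the size class of all 10 members, the number was 63 (0.441%). The 6 of 10 found here stands beside these shares as a description only, because the genes were chosen with the list in view. The 6 overlaps were with 6 separate regions, and each region contained the whole transcript, so the least complete and the most complete overlap were both 100%. At the edge of the rule, the RN7SK transcript ended 24 bp inside its region and RNU6-7 ended 28 bp outside the nearest one.

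**Figure D2:**
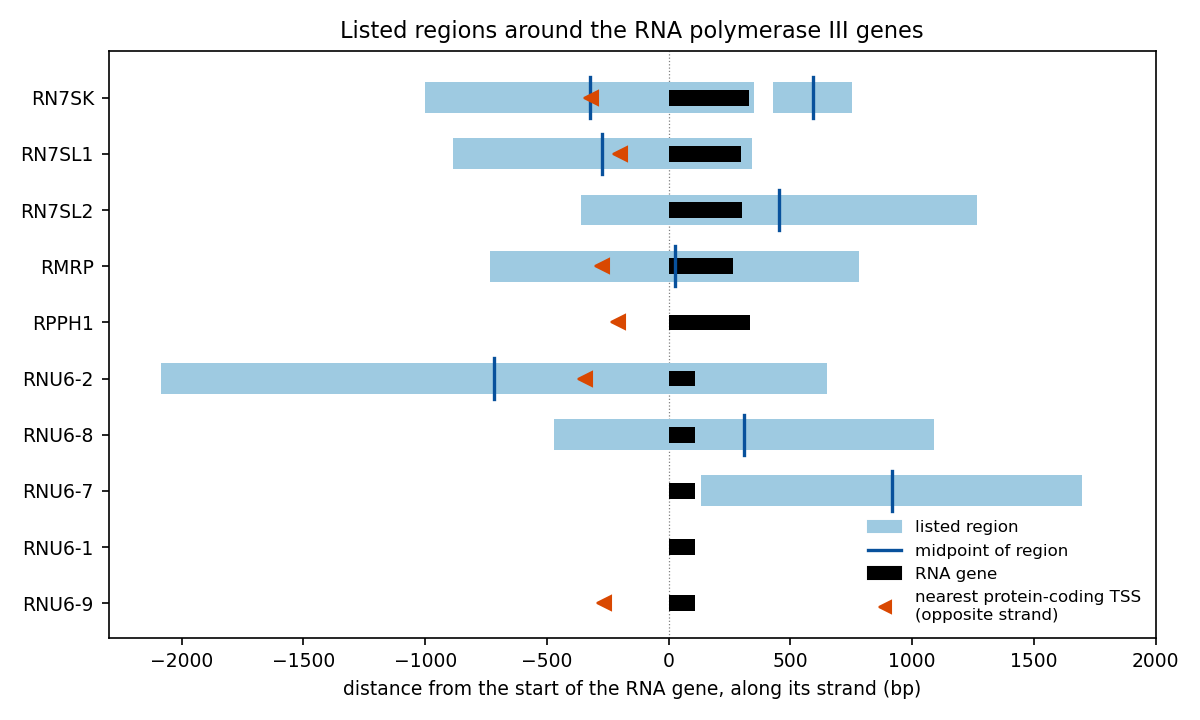
Listed regions (pale blue, midpoint as a dark line) around each transcript (black), with distance in bp from the transcript start along the strand of the gene on the x axis and the protein-coding transcription start site nearest to the transcript, where one lay within 3 kb, as an orange triangle. Midpoints coincide with the protein-coding start at RN7SK, lie near it at RN7SL1 and farther from it at RNU6-2, and lie 24 bp from the transcript start at RMRP. The region beside RNU6-7 is the one that covers RNU6-8.

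RN7SK (ENSG00000283293), which encodes 7SK RNA, lies at chr6:52995621-52995948 on the plus strand (328 bp). Its region, chr6:52994621-52995972, was 1352 bp wide. It reached 1000 bp before the transcript and 24 bp beyond it, so that 74.0% of the region was upstream. The midpoint was 325 bp upstream of the transcript start and 488 bp from the transcript centre, which is 0.722 of the half-width. GSTA4, a glutathione transferase gene read in the opposite direction, has an annotated start 317 bp upstream of RN7SK, 8 bp from the midpoint, and its canonical start was 12 bp from it. A second, narrower region lay downstream at chr6:52996050-52996375 (326 bp), 102 bp from the end of RN7SK, with 77 bases between the regions. RN7SK was the 1 member with a second listed region within 1 kb.

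The 7SL genes lie on chromosome 14 and their regions were placed differently. RN7SL1 (ENSG00000276168, chr14:49586580-49586878, plus strand, 299 bp) lies in an intron of some transcripts of RPS29, a small ribosomal subunit protein gene on the minus strand, with the canonical RPS29 start 200 bp upstream of it. Its region, chr14:49585693-49586923, was 1231 bp wide, the narrowest of the 6, with 887 bp before the transcript and 45 bp after it. The midpoint was 272 bp upstream of the RN7SL1 start and 17 bp from the nearest RPS29 start (72 bp from the canonical one). RN7SL2 (ENSG00000274012, chr14:49862550-49862849, minus strand, 300 bp) had a region of 1627 bp at chr14:49861584-49863210, with 361 bp before the transcript and 966 bp after it. Here the midpoint was 452 bp downstream of the start, past the end of the transcript. The nearest protein-coding start, that of NEMF, was 10028 bp from RN7SL2. The RN7SL2 body shares bases with an exon of a longer noncoding gene on the same strand (ENSG00000282885). Another noncoding gene, read away from RN7SL2 (ENSG00000278002), starts 223 bp upstream. Thus 72.1% of the region at RN7SL1 and 22.2% of the region at RN7SL2 was upstream of the transcript.

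RMRP (ENSG00000277027, chr9:35657754-35658017, minus strand, 264 bp) had the most centred region. The region, chr9:35657235-35658751, was 1517 bp wide and reached 734 bp before the transcript and 519 bp after it. Its midpoint was 24 bp into the transcript and 108 bp from the transcript centre, 0.142 of the half-width, the lowest share among the 6. CCDC107, a gene for a coiled-coil domain protein read in the opposite direction, starts 273 bp upstream of RMRP and 297 bp from the midpoint, also inside the region. RPPH1 (ENSG00000277209, chr14:20343075-20343407, minus strand, 333 bp) has a like arrangement, with PARP2, a poly(ADP-ribose) polymerase gene, starting 208 bp upstream on the other strand. No region lay there, and the nearest one, chr14:20609177-20610417, was 265770 bp away. The RPPH1 body shares bases with an exon of a noncoding gene that spans it (ENSG00000259001).

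Of the 5 U6 genes, 2 had a region, beside 0.441% of all annotated genes of at most 500 bp. RNU6-2 (ENSG00000207357, chr19:1021522-1021628, plus strand) lay in a region of 2734 bp, chr19:1019439-1022172, the widest of the 6 and number 12 from the widest in the whole list. The region reached 2083 bp before the transcript and 544 bp after it, with the midpoint 717 bp upstream of the U6 start. TMEM259, which encodes a membrane protein and is read in the opposite direction, has a start 343 bp upstream of RNU6-2 and 46 bp from the midpoint by its nearest annotated start, or 318 bp by its canonical one. RNU6-8 (ENSG00000202337, chr14:32203163-32203269, minus strand) lay in a region of 1563 bp, chr14:32202179-32203741, with 472 bp before the transcript and 984 bp after it. No other annotated gene overlapped this region. The nearest protein-coding start, that of ARHGAP5, was 48950 bp from its midpoint.

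RNU6-7 (ENSG00000201654, chr14:32202045-32202151, plus strand) points toward RNU6-8, with 1011 bases between the transcripts. The RNU6-8 region ran across the interval between them and ended 28 bp short of RNU6-7, so that the RNU6-8 promoter lay inside it and the RNU6-7 promoter outside it. RNU6-9 (ENSG00000207507, chr19:893484-893590, plus strand) has the start of MED16, a Mediator subunit gene, 266 bp upstream on the other strand, and its nearest region, that of RNU6-2, was 125849 bp away. RNU6-1 (ENSG00000206625, chr15:67839939-67840045, minus strand) lies in an intron of a noncoding gene (ENSG00000259410), 14529 bp from the start of SKOR1. Its nearest region, chr15:66293236-66293848, was 1546091 bp away.

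A protein-coding start within 3 kb was present at 6 of the 10 genes, in each case upstream on the opposite strand at 200 to 343 bp. Of these 6 genes, 4 had a region (RN7SK, RN7SL1, RMRP and RNU6-2) and 2 did not (RPPH1 and RNU6-9). Of the 4 genes with no such neighbour, 2 had a region (RN7SL2 and RNU6-8). Both counts describe chosen genes and stand beside 0.441% of all annotated genes of at most 500 bp. At the 4 shared promoters the region contained both starts, and its midpoint was nearer to the protein-coding start than to the RNA gene at RN7SK, RN7SL1 and RNU6-2 but not at RMRP. With starts this close, a region that belongs to the RNA polymerase III gene and one that belongs to the protein-coding gene cannot be told apart. In the whole list, 378 of the 553 regions on the main chromosomes had a protein-coding start within 3 kb of the midpoint. At RN7SL2 and RNU6-8 no protein-coding start lay in the region, although noncoding starts did at RN7SL2.

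Over the 6 regions, the median distance from midpoint to transcript centre was 362 bp (108 to 770 bp), and that from midpoint to transcript start was 317 bp. The midpoint lay upstream of the start in 3 genes and downstream in 3. The regions had a median width of 1540 bp (1231 to 2734 bp), against 1014 bp over the whole list (quartiles 683 and 1433 bp). All 6 were above the median of the list and 4 were above its upper quartile. Their GC content had a median of 54.2% (49.5% to 62.1%), and 5 of the 6 were under the list median of 60.3%. Width and composition come from the same list that chose the genes, so no test was made.

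**Figure D3:**
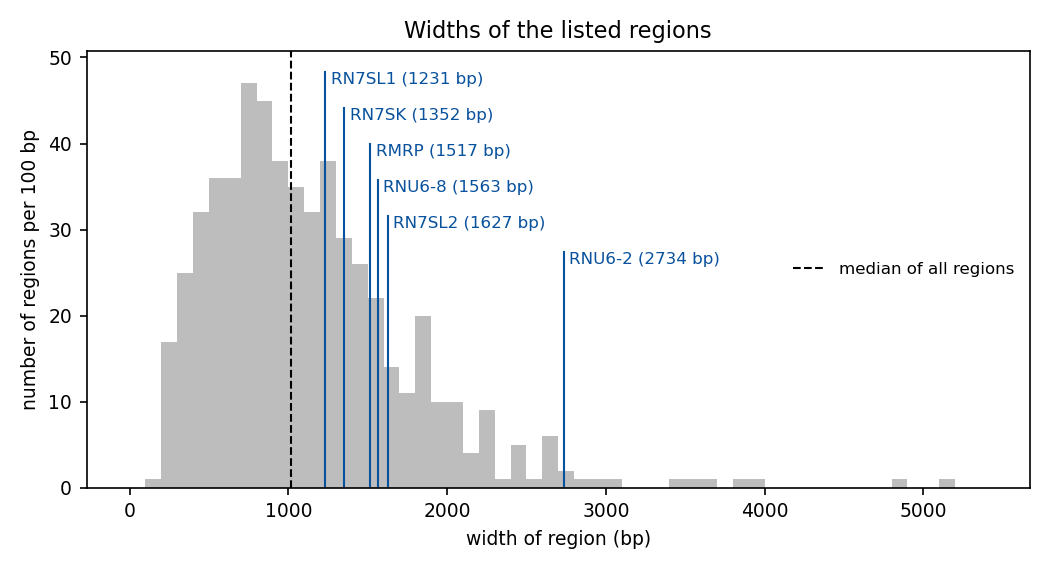
Number of listed regions by width (x axis, bp, in bins of 100 bp), with the median of all 562 regions as a dashed line and the region at each of the 6 genes as a blue line. The 6 lines run from 1231 bp at RN7SL1 to 2734 bp at RNU6-2, all to the right of the median of 1014 bp.

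The U6, 7SL and 7SK RNAs belong to families with many annotated copies, while RMRP has 1 other copy and RPPH1 has 2. Whether this affected where reads were placed was not tested. All 5 U6 genes have the same length of 107 bp. The bodies of RNU6-1, RNU6-2 and RNU6-9 were identical, as were those of RNU6-7 and RNU6-8, and the sets differed by 1 base, the last. RNU6-2, with a region, and RNU6-1 and RNU6-9, without one, therefore had the same transcript sequence. The same held for RNU6-8, with a region, and RNU6-7, without one. The 250 bases before these genes differed far more, with 48.5% to 56.0% identity in 9 of the pairs and 86.7% between RNU6-7 and RNU6-8. RN7SL1 and RN7SL2 were identical at 295 of 300 aligned positions and 53.6% identical before the transcript.

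The 3′ ends of the genes other than U6 are shown because they hold the terminator. Each line gives the last 20 bases of the annotated transcript and the 20 after it, with the first run of at least 4 T in capitals.
RN7SK (chr6:52995929-52995968, plus strand): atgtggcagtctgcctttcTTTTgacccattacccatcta
RN7SL1 (chr14:49586859-49586898, plus strand): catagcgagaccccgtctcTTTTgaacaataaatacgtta
RN7SL2 (chr14:49862530-49862569, minus strand): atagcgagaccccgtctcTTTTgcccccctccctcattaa
RMRP (chr9:35657734-35657773, minus strand): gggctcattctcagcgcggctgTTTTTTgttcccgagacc
RPPH1 (chr14:20343055-20343094, minus strand): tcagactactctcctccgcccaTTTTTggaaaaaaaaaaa
The run was 4 bases long in RN7SK, RN7SL1, RN7SL2, RNU6-7 and RNU6-8, 5 in RPPH1, RNU6-1 and RNU6-2, 6 in RMRP and 15 in RNU6-9. This run lay inside the region at all 6 genes that had one, since each region extended 24 to 984 bp past the transcript.

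To describe repetition, each stretch of 31 bases (a word) was looked up in the main assembly and the percentage of words found once was taken. It was 0% for the body of every U6 gene, where a word had a median of 30 copies, and 0% and 4.44% for RN7SL1 and RN7SL2. RN7SK had 10.4%, while RMRP had 99.6% and RPPH1 100%. The bodies of RMRP, with a region, and RPPH1, without one, thus consisted of single-copy words or nearly so. In the 300 bases before the transcript the share was 100% in 7 genes, 89.3% at RNU6-7 and RNU6-8 and 84.1% at RN7SL1. In the 300 bases after the transcript it was lowest at RNU6-9 (38.5%) and RPPH1 (40.4%), which had no region, followed by RN7SK (44.4%) and RMRP (77.8%), which had one. RNU6-8, with a region, lay between RMRP and the other 5 genes, which were at 100%, RN7SL1, RN7SL2 and RNU6-2 with a region and RNU6-1 and RNU6-7 without. The regions themselves held 67.9% single-copy words at RN7SL1, 79.6% at RN7SK, 83.4% at RN7SL2, 91.0% at RNU6-8, 91.8% at RNU6-2 and 95.9% at RMRP, all under the median of 99.9% over the listed regions of the main chromosomes. The second region at RN7SK held 49.0%. Each region that overlapped a gene contained its whole transcript, so the repeated 7SK, 7SL and U6 bodies are counted in the shares of those regions. The reads were 150 bases long, and of all 150-base words that share at least 1 base with the transcript, 100% were single-copy in 8 genes and 77.9% and 78.0% in RN7SL1 and RN7SL2. Whether repeated sequence had a part in the absent regions was not tested.

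**Figure D4:**
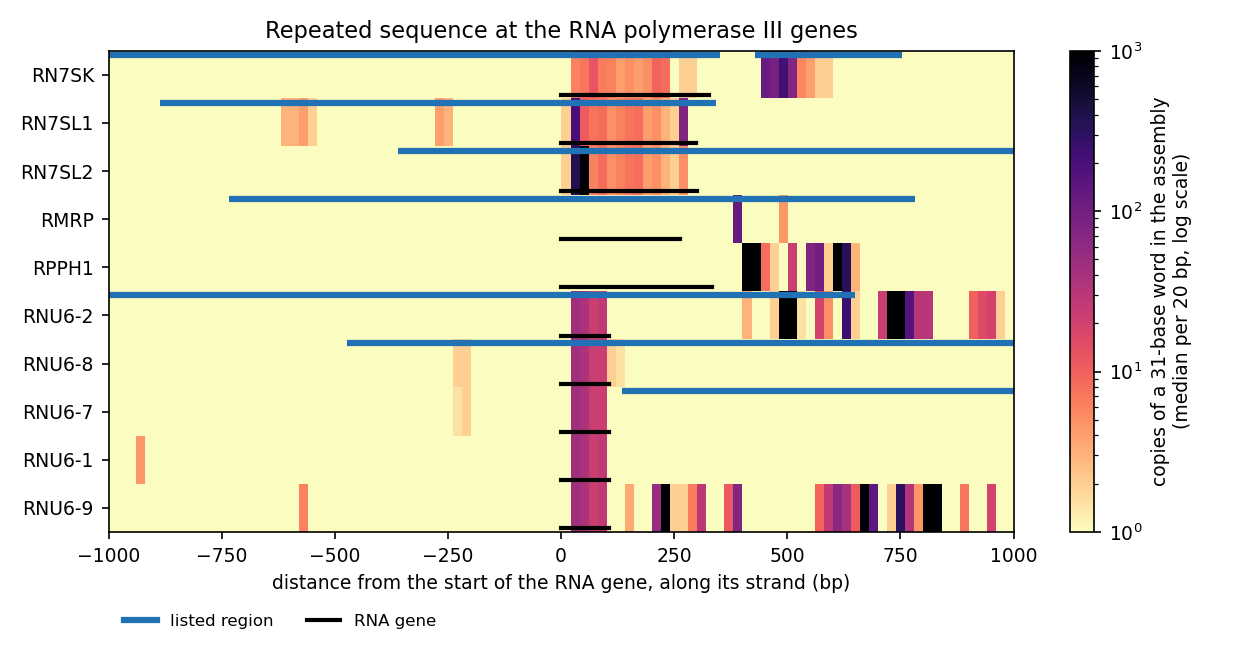
Median number of copies in the main assembly of the 31-base words centred in each 20 bp (colour, log scale). The x axis covers 1000 bp on each side of the transcript start, in bp along the strand. Transcripts are in black and listed regions in blue. The bodies of the U6, 7SL and 7SK genes are repeated and those of RMRP and RPPH1 are not, while the flanks before the transcripts are mostly single-copy. After the transcript, RPPH1 and RNU6-9 show the lowest single-copy shares over 300 bp (40.4% and 38.5%).

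The families hold 2251 other annotated copies, of which 1271 were of U6, 678 of 7SL, 299 of 7SK, 2 of RPPH1 and 1 of RMRP. None of the 2251 shared a base with a region, nor did any of 203 more copies annotated under general names, beside the 0.441% of all annotated genes of at most 500 bp that did. The copies were taken by symbol and include those named as pseudogenes, such as RNU6-502P, so they are not a matched set for the members. The nearest copy was RN7SL3, a 7SL gene at chr14:49853616-49853914, which lay 447 bp from a region of 851 bp (chr14:49852319-49853169) whose midpoint was 36 bp from a start of NEMF. This region was also the listed region nearest to that of RN7SL2, 9381 bp from the RN7SL2 transcript. The next copy, RNU6-502P, was 1026 bp from a region. Outside the member regions, 1 region of the list, chr22:17528851-17529697 (847 bp), held 31-base words of a member, 4 words of 7SL.

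Genes for proteins that work with these RNAs were looked up from a fixed list. Of 59 protein-coding genes for subunits of the 7SK, SRP, RNase P, RNase MRP and U6 particles, U6 processing, RNA polymerase III and its upstream promoter factors, 2 had a start within 3 kb of a region midpoint, beside 438 of 20046 protein-coding genes (2.18%), a background so near that nothing is read from the count. The first was LSM4 (chr19:18306236-18323112, minus strand), a subunit of the LSM ring that binds the 3′ end of U6, with a start 5 bp from the midpoint of a region of 703 bp. The other was POLR3E (chr16:22297375-22335101, plus strand), a polymerase III subunit, with a start 461 bp from the midpoint of a region of 1760 bp. By particle, the counts were 0 of 7 for the 7SK particle, 0 of 6 for SRP, 0 of 11 for RNase P and MRP, 1 of 16 for U6, 0 of 10 for upstream promoter factors such as SNAPC1 and BRF2, and 1 of 11 for polymerase subunits. LARP7 and MEPCE were counted with both 7SK and U6.

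Of 10 other genes transcribed by RNA polymerase III on a fixed list outside the tRNA and 5S sets, 9 were found in the annotation by symbol and RNY5 was not. By the same overlap rule 4 of the 9 had a region, RNY1, RNY3, VTRNA1-1 and VTRNA1-2, which encode Y RNAs and vault RNAs, beside 0.441% of all annotated genes of at most 500 bp and 1.11% of all genes. This list too was drawn up with the regions known. RNY4, RNU6ATAC, VTRNA1-3, VTRNA2-1 and BCYRN1 had none.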

How the data were processed

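CUT&Tag libraries of OMM2.3 cells, 1 shCtrl and 1 shA3B, were made with a V5 antibody. Per the study's methods and the submitters' processing notes, the authors trimmed reads (Cutadapt 4.1), aligned them to GRCh38 (Bowtie2 2.2.5), removed duplicates (Picard 2.27.3), applied a mapping-quality filter (Samtools 1.15.1), called peaks (SEACR 1.3) and compared them with edgeR, whose settings are not given in the sources used here. Such a filter is meant to drop reads that align equally well to several copies. Its effect at these genes could not be checked from coordinates. The deposited file has 3 columns of coordinates and holds no read counts, scores or strand.

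Starts were converted to 1-based positions and matched to GENCODE 44, in which 1 duplicate 7SK entry at RN7SK was left out. A member had a region when at least 1 base was shared, and a protein-coding gene when a start lay within 3 kb of a midpoint. Copies were found by symbol. Words of 31 bases were counted over the assembly, alternate contigs excepted. Motifs were compared with 35116 RefSeq promoters (GRCh38.p14), which held none of the members, so their sequences came from GRCh38. The sequence of the U6 transcript is not reported here. Named genes were the members, the protein-coding genes nearest to them or to their region midpoints, copies and partners with a region. RN7SL3, RNU6-502P, the noncoding neighbours and the Y and vault RNA genes were named after their values were seen. The members and all lists were chosen with earlier results of these data known. Alternatives changed the overlap, promoter and copy rules, merging, word length and PSE spacing. Functions were tested on simulated data. No p-value was computed. Python 3.11.15, numpy 2.4.6, pandas 2.3.3, pysam 0.24.0, Biopython 1.88 and matplotlib 3.10.9 were used.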

Additional observations from a re-analysis of the deposited data

How the results depend on the processing

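The 9 results were recomputed under 22 alternatives, and 18 of the values stayed within their limit (for counts, 1.5 times the reported value). The number of members with a region was 6, and 5 when the start had to lie within 500 bp of a midpoint, 7 with 500 bp added on each side (RNU6-7 joined), and 6 under the other 2 rules. The median width was 1595 bp after merging regions within 1 kb, which joined both regions at RN7SK, and 1517 bp under the start rule, and the offset was 294 bp after merging. The count of 4 members with a protein-coding start near the midpoint was the same under each alternative tried. Of the values outside the limit, copies with a region went from 0 to 1 (RN7SL3) with 500 bp added on each side. Members with a PSE-like match went from 2 to 6 with ACCNTAA alone, a form written after these sequences had been read. Among all promoters ACCNTAA was the rarer match, at 0.356% against 0.701% for the pair. The median single-copy share of the bodies went from 0% to 6.8% with 51-base words and to 100% with 150-base words that share a base with the body, since longer words reach more distinguishing bases. ACCNTAA, the 150-base words and the copies under general names were chosen after seeing the data. No paired analysis was possible because there is 1 library in each group and no result came from a test. Depth is unknown, so the absence of a region at the other 4 genes cannot be set against a limit of detection.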
